A study of Mus musculus with 18 samples.

Results

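The mRNAs of 9 genes of the complement system were followed in whole mouse kidneys 12 h after injury. They were *C3*, *C4b*, *C1ra*, *C1s1*, *Cfb*, *Cfi*, *Cd55*, *C3ar1* and *C5ar1*, and they are 9 of the 45706 genes in the count tables. The list was set by gene name, but with earlier results of these data known. The 18 kidneys came from male mice labelled C57BL/6 (C57BL/6J for the floxed lines in the study's methods) in 4 groups. Both kidneys of each mouse had been deprived of blood for 22.5 min and then perfused again for 12 h, so no uninjured kidney was measured. The 5 *Cxcl12* KO kidneys carried the floxed *Cxcl12* gene with the Pax8rtTA and TetOCre transgenes, and the 5 *Myc* KO kidneys carried the floxed *Myc* gene with the same transgenes. The 3 *Cxcl12* control and 5 *Myc* control kidneys carried the floxed gene and Pax8rtTA without TetOCre. All mice received doxycycline, which switches on the recombinase through the Pax8 promoter. Deletion is therefore limited to tubule cells, whereas the RNA came from the whole organ, in which fewer cells of a type and less RNA per cell cannot be told apart. The labels number the kidneys of a group as replicates without naming a mouse or litter, so p-values measure the spread between these kidneys, part of which may be technical.

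Complement is a cascade of blood proteins that marks targets for removal and attracts leukocytes. In its classical pathway the protease C1r activates C1s, which cleaves C4, its alternative pathway uses factor B, and both converge on cleavage of C3. The fragments C3a and C5a act on the receptors encoded by *C3ar1* and *C5ar1*, while factor I and the membrane protein CD55 (decay-accelerating factor) restrain the cascade. Injured kidney tubules are a known site of C3 synthesis outside the liver.

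The targeted genes followed the labels. *Cxcl12* was at 55.1, 60.5 and 44.9 CPM (reads of the gene per 1000000 reads on genes, with library sizes scaled by the TMM method) in its controls and at 28.7, 36.3, 29.2, 26.3 and 40.9 CPM in its KO kidneys, and all KO kidneys lay below all controls. *Myc* was at 79.7 to 117 CPM in its controls and at 26.6 to 37.0 CPM in its KO kidneys. The tables assigned 12918220 to 29749500 reads of each kidney to genes. In 6 kidneys fewer than 5% of the reads were unmapped, against at least 5% in the other 12. Of these 6, the *Cxcl12* KO, *Myc* control and *Myc* KO groups held 2 each and the *Cxcl12* controls 0, and they are drawn as open symbols in the plot of the levels by kidney. The study's methods corrected for batch effects with ComBat without naming the batches, and neither they nor the labels name these 6 kidneys as one. The KO effect could not be measured within these 6 kidneys in the *Cxcl12* cohort, and values without them are given for some of the results they move.

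Promoters of 6 of the 9 genes were found in the RefSeq table for GRCm38.p6, but not those of *C4b*, *Cfb* and *Cfi*, and 3 are shown. They belong to *Cd55*, the regulator on the cell surface and the only 1 of 9 members whose *Cxcl12* KO and control kidneys did not overlap, where 9.68% of the 15154 genes tested had no overlap. The others are *C3ar1* and *C5ar1*, the receptors for C3a and C5a. None of the 3 genes passed the adjusted threshold in either cohort. Each line gives the 250 bases before the start annotated in RefSeq, 5′ to 3′ on the strand of the gene. They lie at chr1:130462745-130462994 (minus strand) for *Cd55*, at chr6:122856158-122856407 (minus strand) for *C3ar1* and at chr7:16259339-16259588 (minus strand) for *C5ar1*. In GENCODE vM21, used for positions and lengths below, *C3ar1* reaches 122856161 and *C5ar1* reaches 16259540. The window of *C3ar1* thus lies slightly, and that of *C5ar1* mostly, inside the gene as annotated there. Capitals mark the single match to a searched motif, the AP-1 site TGANTCA.
Cd55: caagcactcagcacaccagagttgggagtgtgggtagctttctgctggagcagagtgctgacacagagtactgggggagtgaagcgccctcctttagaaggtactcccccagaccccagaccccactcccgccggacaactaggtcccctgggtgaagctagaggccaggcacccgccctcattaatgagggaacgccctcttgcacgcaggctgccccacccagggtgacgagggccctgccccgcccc
C3ar1: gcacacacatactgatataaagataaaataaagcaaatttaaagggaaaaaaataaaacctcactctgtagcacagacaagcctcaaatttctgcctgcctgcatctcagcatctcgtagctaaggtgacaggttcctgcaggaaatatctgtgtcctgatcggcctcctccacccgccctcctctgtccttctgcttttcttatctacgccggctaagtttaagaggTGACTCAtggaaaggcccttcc
C5ar1: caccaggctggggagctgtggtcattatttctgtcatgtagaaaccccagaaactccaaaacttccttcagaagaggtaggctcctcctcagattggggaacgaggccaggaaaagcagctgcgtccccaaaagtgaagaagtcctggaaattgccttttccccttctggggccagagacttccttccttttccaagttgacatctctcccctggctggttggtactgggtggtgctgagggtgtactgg
Windows of 300 bases, 250 before and 50 after the start, were searched on both strands for 5 motifs. These were the E-box CACGTG that MYC and its partner MAX bind, the interferon-gamma activated site TTCNNNGAA, the interferon response element (GAAA, any 2 bases, GAAA), the AP-1 site and the NF-kappaB site. None of the 6 genes with a promoter in the table had a match to the E-box, which 7.15% of the 32851 promoters of the table hold. The AP-1 match of *C3ar1* starts 22 bases before the start site, and 7.81% of the promoters have one. *C1ra* had the only other match, to the interferon-gamma activated site, 32 bases after its start, and 8.30% of the promoters have one. A match is a description of the letters, and the data hold no measurement of binding.

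None of the 9 complement mRNAs passed the threshold in either cohort. The test was edgeR's quasi-likelihood test of KO against control kidneys, with p adjusted over all genes by the Benjamini-Hochberg method and a threshold of 0.05. It called 0 of the 9 members for *Cxcl12* and 0 of 9 for *Myc*. The background was 0.0% of 15154 genes tested in the *Cxcl12* cohort and 1.65% of 14936 genes in the *Myc* cohort. DESeq2 called 0 of 9 in each cohort against 2.38% and 8.76% of the genes to which it gave an adjusted p, and limma voom called 0 of 9 in each against 0.0% and 1.44%. At an unadjusted edgeR p under 0.05, 1 of 9 members passed in the *Cxcl12* cohort, namely *Cd55*, against 13.0% of all genes, and 0 of 9 passed in the *Myc* cohort, against 21.9%. All 9 members passed the filter on low counts in both cohorts. Their median log2 fold change (KO over control, 0 for no difference) was -0.16 for *Cxcl12* and 0.05 for *Myc*, beside 0.00083 and -0.00083 for all genes tested. The deleted *Cxcl12* itself had a log2 fold change of -0.73 in its cohort (edgeR adjusted p = 0.094) and did not pass. *Myc* passed in its own cohort, at -1.61 (edgeR adjusted p = 8.8e-05).

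**Figure D1:**
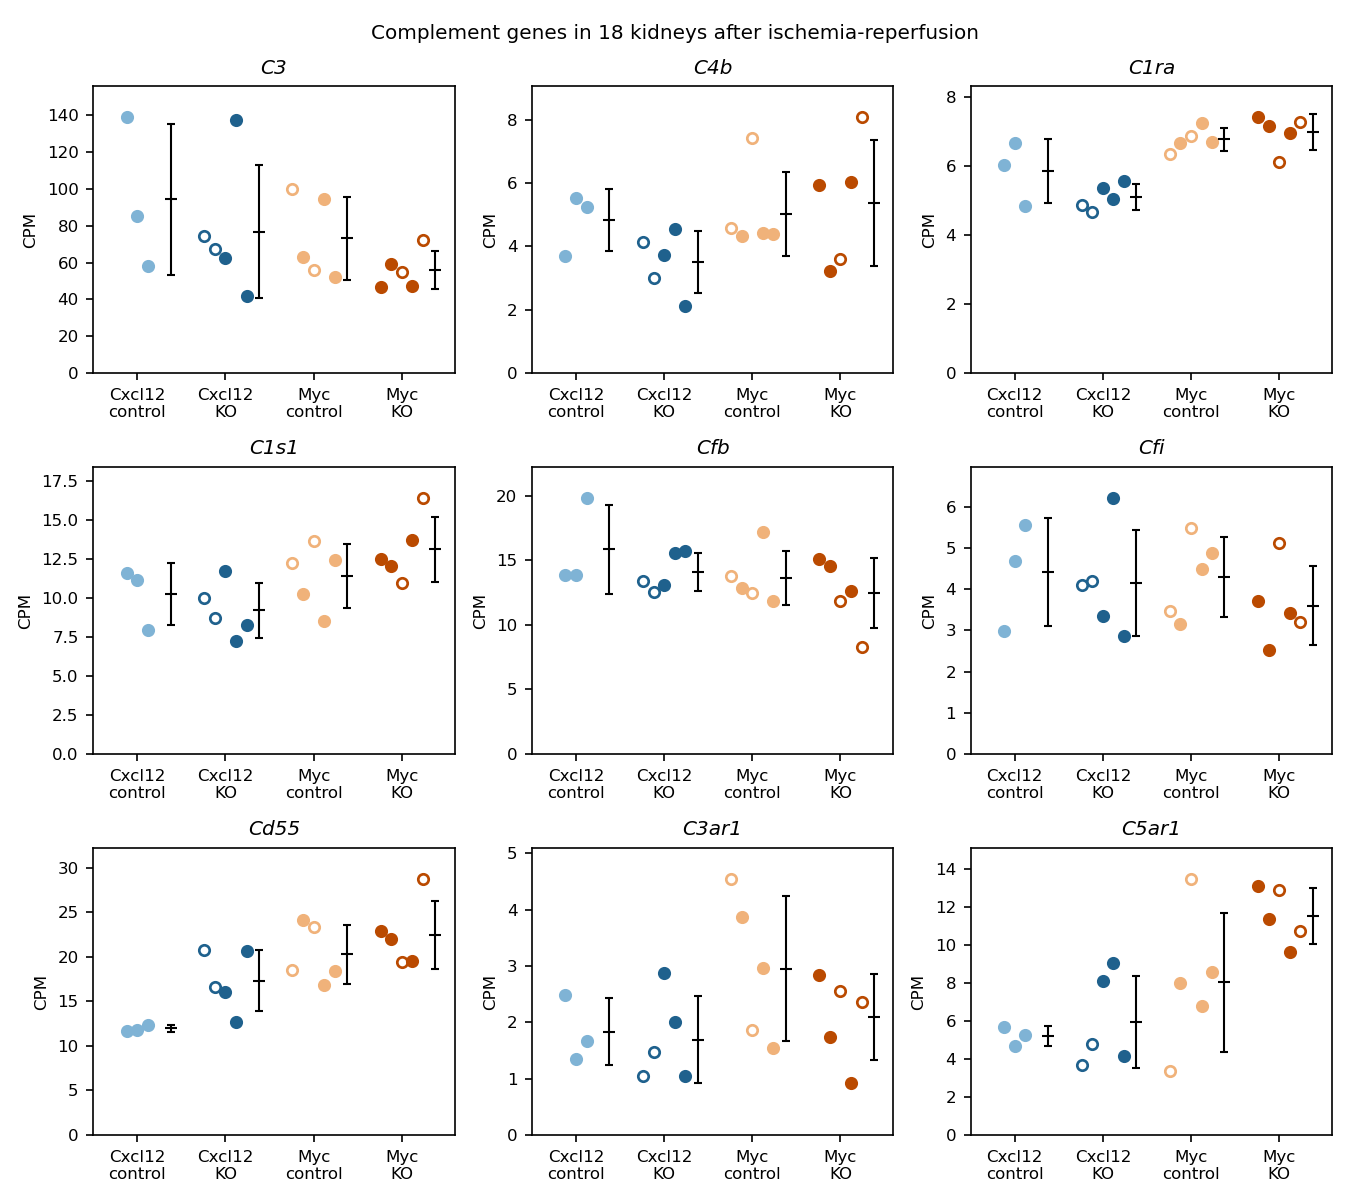
Level of each complement gene in every kidney (CPM scaled by TMM, vertical axis from 0) in the 4 groups; points are kidneys, open points are the 6 kidneys with fewer than 5% unmapped reads, and black bars are the mean with the SD. *Cd55* is the gene whose *Cxcl12* KO kidneys, from 12.7 to 20.7 CPM, all lie above their controls at 11.7 to 12.4 CPM.

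Levels were compared between genes per kilobase of exon, and the order depends on the length counted for *Cfb*. Over all exon bases *C3*, the central component, was highest at 14.2 ± 5.57 CPM per kb (SD, n = 18 kidneys), and it lay above *Cfb* in 18 of 18 kidneys. Over the 579 exon bases that *Cfb* shares with no other gene, a length taken after the data were seen, *Cfb* was at 23.8 ± 4.21 CPM per kb and above *C3* in 17 of 18 kidneys. Over all exon bases *C3* was followed by *Cfb* at 4.89 ± 0.863, *Cd55* at 3.85 ± 0.972, *C1s1* at 3.54 ± 0.757 and *C5ar1* at 3.10 ± 1.31 CPM per kb. Over all exon bases these 4 were not cleanly ordered, since *Cfb* exceeded *Cd55* in 15, *Cd55* exceeded *C1s1* in 12 and *C1s1* exceeded *C5ar1* in 13 of 18 kidneys, and over unshared bases *C1s1* at 4.34 ± 0.928 CPM per kb lay above *Cd55* at 3.93 ± 0.993. *C1ra* at 2.09 ± 0.314 and *Cfi* at 1.84 ± 0.479 CPM per kb overlapped as well. *C4b* at 0.820 ± 0.265 CPM per kb lay below *Cfi* in 18 of 18 kidneys, and *C3ar1* was lowest at 0.506 ± 0.229 CPM per kb.

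Some of these counts cover only part of a gene. STAR leaves out reads that fall in exons of more than 1 gene or map to more than 1 place. In GENCODE vM21, 79.5% of the exon bases of *Cfb* also belong to the transcript Gm20547 on the same strand, which was listed at 0 reads in all 18 kidneys. Reads in the shared bases would be in neither count, and the level of *Cfb* per kb, taken over all its exon bases, can then be an underestimate. *C1s1* shares 18.4% of its exon bases with the antisense transcript Gm16567, and 32.8% of the reads that the strand-specific columns assign to *C1s1* were missing from the column used here. Near-identical copies limit 4 members. Of the 50-base stretches in the longest transcript, 50.8% of *C1ra*, 39.0% of *C1s1*, 35.2% of *C4b* and 15.5% of *Cd55* recur in another gene, chiefly the copies *C1rb*, *C1s2*, *C4a* and *Cd55b*. The copies themselves held 0 to 1 read (*C1rb*), 0 to 5 reads (*C1s2*), 7 to 34 reads (*C4a*) and 0 reads (*Cd55b*) per kidney, and the split of reads between each gene and its copy is uncertain. No such stretch was found in *C3*, *Cfi*, *C3ar1* or *C5ar1*.

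*C1ra* (ENSMUSG00000055172, chromosome 6 of GRCm38, 124512405 to 124523443) and *C1s1* (ENSMUSG00000038521, chromosome 6, 124530345 to 124542359) encode the proteases of the C1 complex and lie next to each other. *C1ra* was at 6.03, 6.67 and 4.84 CPM in *Cxcl12* control and at 4.88, 4.66, 5.37, 5.05 and 5.58 CPM in *Cxcl12* KO kidneys. *C1ra* was at 6.36, 6.68, 6.87, 7.27 and 6.70 CPM in *Myc* control and at 7.44, 7.15, 6.13, 6.95 and 7.29 CPM in *Myc* KO kidneys. The groups overlapped in both cohorts. The log2 fold changes were -0.20 (SE 0.16, edgeR adjusted p = 0.602) for *Cxcl12* and 0.05 (SE 0.10, adjusted p = 0.823) for *Myc*. This was the steadiest member, with a within-group SD of 0.12 on the log2 scale where counting error alone gives 0.13, and its 95% interval in the *Myc* cohort ran from -0.18 to 0.27.

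*C1s1* was at 11.6, 11.1 and 7.95 CPM in *Cxcl12* control and at 10.03, 8.71, 11.7, 7.27 and 8.25 CPM in *Cxcl12* KO kidneys. It was at 12.2, 10.3, 13.6, 8.50 and 12.5 CPM in *Myc* control and at 12.5, 12.1, 10.97, 13.7 and 16.4 CPM in *Myc* KO kidneys. Both pairs of groups overlapped, and the highest value of all was in *Myc* KO replicate 5. KO over control, the log2 value was -0.16 (SE 0.18, edgeR adjusted p = 0.732) for *Cxcl12* and 0.20 (SE 0.15, adjusted p = 0.438) for *Myc*.

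*C4b* (ENSMUSG00000073418, chromosome 17, 34728380 to 34743882) encodes C4, the substrate of C1s. In the *Cxcl12* cohort it was at 3.71, 5.54 and 5.26 CPM in control and at 4.14, 2.99, 3.73, 4.55 and 2.11 CPM in KO kidneys. All 5 KO kidneys lay below the control mean of 4.84 CPM, but 3 of them lay above the lowest control. The log2 fold change was -0.47 (95% interval -1.02 to 0.08, edgeR adjusted p = 0.455). The *Myc* controls were at 4.59, 4.32, 7.41, 4.43 and 4.39 CPM and the KO kidneys at 5.93, 3.21, 3.61, 6.02 and 8.10 CPM, with a log2 fold change of 0.09 (95% interval -0.46 to 0.65, edgeR adjusted p = 0.863). The genes whose levels followed *C4b* most closely over the 18 kidneys were *Hp* (haptoglobin, r = 0.83), *Abcd2* (r = 0.82) and *Ucp1* (r = 0.78), after the group means were removed. *Ucp1*, the uncoupling protein of brown fat, was at 13.3 CPM in *Myc* KO replicate 5 and at 8.97 CPM in *Myc* control replicate 3, which are also the kidneys with the most *C4b* in their groups. *Ucp1* ran from 0 to 5.98 CPM in the other 16 kidneys. *Cfd*, encoding factor D (adipsin), a product of fat cells, was chosen after its values were seen: it was highest in *Myc* KO replicate 5 at 39.1 CPM and, among the *Myc* controls, in replicate 3 at 21.2 CPM. *Cfd* also reached 27.4 CPM in a *Cxcl12* control and 27.7 CPM in a *Cxcl12* KO kidney. The part of fat-cell RNA in the *C4b* values was not tested.

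*C3* (ENSMUSG00000024164, chromosome 17, 57203970 to 57228136) varied 3.34-fold among the 18 kidneys. It was at 139, 85.4 and 58.4 CPM in *Cxcl12* control and at 74.6, 67.2, 62.7, 138 and 41.7 CPM in *Cxcl12* KO kidneys. It was at 100.3, 63.2, 56.0, 94.5 and 52.3 CPM in *Myc* control and at 47.0, 59.1, 54.8, 47.1 and 72.3 CPM in *Myc* KO kidneys. The highest kidney of each *Cxcl12* group, at 139 and 138 CPM, stood well above the rest of its group, and the *Myc* groups overlapped between 52.3 and 72.3 CPM. On the log2 scale KO over control came to -0.30 (95% interval -1.06 to 0.46, edgeR adjusted p = 0.739) for *Cxcl12* and -0.38 (95% interval -0.79 to 0.03, edgeR adjusted p = 0.264) for *Myc*. All 5 *Myc* KO kidneys were under their control mean of 73.3 CPM. The *Cxcl12* value rested on 1 control kidney: without *Cxcl12* control replicate 1 it was 0.09, and without *Cxcl12* KO replicate 4 it was -0.62. The within-group SD of *C3* was 0.49 on the log2 scale, against 0.04 from counting error alone. The median gene had a within-group SD of 0.22.

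*Cfb* (ENSMUSG00000090231, chromosome 17, 34856374 to 34862518) encodes factor B, the protease of the alternative pathway. It was at 13.8, 13.9 and 19.8 CPM in *Cxcl12* control and at 13.4, 12.6, 13.1, 15.6 and 15.7 CPM in *Cxcl12* KO kidneys. It was at 13.8, 12.8, 12.5, 17.2 and 11.9 CPM in *Myc* control and at 15.1, 14.5, 11.9, 12.6 and 8.29 CPM in *Myc* KO kidneys. The groups overlapped, and *Myc* KO replicate 5, highest in *C1s1* and *C4b*, was the lowest of all 18 kidneys in *Cfb*. *Cfb* had a log2 fold change of -0.18 (95% interval -0.50 to 0.14, edgeR adjusted p = 0.628) for *Cxcl12* and -0.13 (95% interval -0.48 to 0.21, edgeR adjusted p = 0.655) for *Myc*. The sign of the *Myc* value depended on the part of the reads counted. It was 0.25 with the counts of column 4, which hold 26.6% of the reads of *Cfb* against 74.7% in column 3.

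The regulators were *Cfi* and *Cd55*. *Cfi* (ENSMUSG00000058952, chromosome 3, 129835884 to 129875332) encodes factor I, which inactivates C3b and C4b. It ran from 2.99 to 5.56 CPM in *Cxcl12* control, from 2.85 to 6.22 CPM in *Cxcl12* KO, from 3.15 to 5.48 CPM in *Myc* control and from 2.53 to 5.12 CPM in *Myc* KO kidneys. All 4 ranges overlapped. *Cfi* had a log2 fold change of -0.09 (95% interval -0.69 to 0.51, edgeR adjusted p = 0.922) for *Cxcl12* and -0.25 (95% interval -0.71 to 0.20, edgeR adjusted p = 0.499) for *Myc*.

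*Cd55* (ENSMUSG00000026399, chromosome 1, 130439027 to 130462744) encodes the membrane protein that takes apart the C3 convertases, and its upstream sequence is the first shown above. It was at 11.7, 11.8 and 12.4 CPM in *Cxcl12* control and at 20.7, 16.6, 16.0, 12.7 and 20.6 CPM in *Cxcl12* KO kidneys. All 5 KO kidneys lay above all 3 controls, the lowest of them, replicate 4, by a narrow margin. The mean was 17.3 ± 3.42 CPM (SD, n = 5) against 12.0 ± 0.358 CPM (SD, n = 3), a 1.45-fold difference and a log2 fold change of 0.53 (SE 0.16, 95% interval 0.18 to 0.89). The unadjusted edgeR p was 0.0072 and the adjusted p was 0.22, and the DESeq2 adjusted p was 0.089, so that the difference did not pass the threshold. The lack of overlap, in 1 of 9 members, is near the share of 9.68% over all genes. Without the 2 kidneys with fewer than 5% unmapped reads the log2 fold change was 0.44 (edgeR adjusted p = 0.332) and *Cd55* still did not overlap, as did 19.1% of genes in these 3 against 3 kidneys.

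Of 11 marker lists, 8 had summed levels that overlapped between *Cxcl12* KO and control kidneys, endothelium and macrophage markers among them, and 3 did not. Among single genes tested 9.68% did not overlap. The summed CPM of 8 tubular injury markers, *Havcr1* and *Lcn2* among them, ran from 1709 to 2560 in *Cxcl12* control and from 2775 to 3276 in *Cxcl12* KO kidneys. The sum of 8 proximal tubule markers ran from 6122 to 7200 in control and from 5115 to 5952 in KO kidneys. The sum of 8 neutrophil markers ran from 21.7 to 30.5 in control and from 35.0 to 165 in KO kidneys. For these 3 lists 0 markers passed the edgeR threshold, which 0 of all 15154 genes tested passed in this cohort. Log2 fold changes were positive for 7 of 7 neutrophil markers tested, 7 of 8 tubular injury markers and 0 of 8 proximal tubule markers. Every marker was detected in some kidney. Their part in the *Cd55* difference was not tested. *Cd55* in the *Myc* cohort was at 18.5, 24.2, 23.4, 16.9 and 18.4 CPM in control and at 22.9, 22.0, 19.4, 19.5 and 28.8 CPM in KO kidneys. The *Myc* groups overlapped for *Cd55*, and the log2 fold change was 0.15 (95% interval -0.14 to 0.45, edgeR adjusted p = 0.528).

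*C3ar1* (ENSMUSG00000040552, chromosome 6, 122847138 to 122856161) encodes the receptor for C3a, found on myeloid cells. It held only 15 to 118 reads per kidney. It was at 2.49, 1.35 and 1.67 CPM in *Cxcl12* control and at 1.06, 1.48, 2.88, 2.00 and 1.05 CPM in *Cxcl12* KO kidneys. It was at 4.55, 3.87, 1.86, 2.96 and 1.54 CPM in *Myc* control and at 2.85, 1.75, 2.56, 0.931 and 2.35 CPM in *Myc* KO kidneys. Both pairs overlapped, and all 5 *Myc* KO kidneys were under their control mean of 2.95 CPM. The log2 fold change was -0.15 (95% interval -0.95 to 0.65, edgeR adjusted p = 0.896) for *Cxcl12* and -0.50 (95% interval -1.23 to 0.24, edgeR adjusted p = 0.407) for *Myc*. Without *Myc* control replicate 1 the *Myc* value of *C3ar1* was -0.27.

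*C5ar1* (ENSMUSG00000049130, chromosome 7, 16246743 to 16259540) encodes the receptor for C5a, by which neutrophils are drawn to inflamed tissue. It was at 5.70, 4.68 and 5.26 CPM in *Cxcl12* control and at 3.70, 4.81, 8.09, 9.05 and 4.15 CPM in *Cxcl12* KO kidneys. The KO kidneys reached both above and below the controls, and the log2 fold change was 0.18 (95% interval -0.47 to 0.82, edgeR adjusted p = 0.834). Without the *Cxcl12* KO kidneys with fewer than 5% unmapped reads the log2 fold change was 0.43 (edgeR adjusted p = 0.546). *C5ar1* in the *Myc* cohort was at 3.35, 7.99, 13.5, 6.77 and 8.60 CPM in control and at 13.1, 11.4, 12.9, 9.62 and 10.8 CPM in KO kidneys. Every KO kidney lay above the control mean of 8.05 CPM, and 1 control, replicate 3, exceeded them all. The log2 fold change was 0.52 (95% interval -0.07 to 1.11, edgeR adjusted p = 0.283). It was 0.31 without *Myc* control replicate 1 and 0.81 without *Myc* control replicate 3. Of the 9 members, 0 were without overlap there, against 5.97% of the 14936 genes tested. Without the 4 *Myc* kidneys with fewer than 5% unmapped reads, *C5ar1* was the 1 member without overlap, beside 29.8% of genes in 3 against 3 kidneys, and its log2 fold change was 0.55 (unadjusted p = 0.0092 and adjusted p = 0.105 from edgeR).

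**Figure D2:**
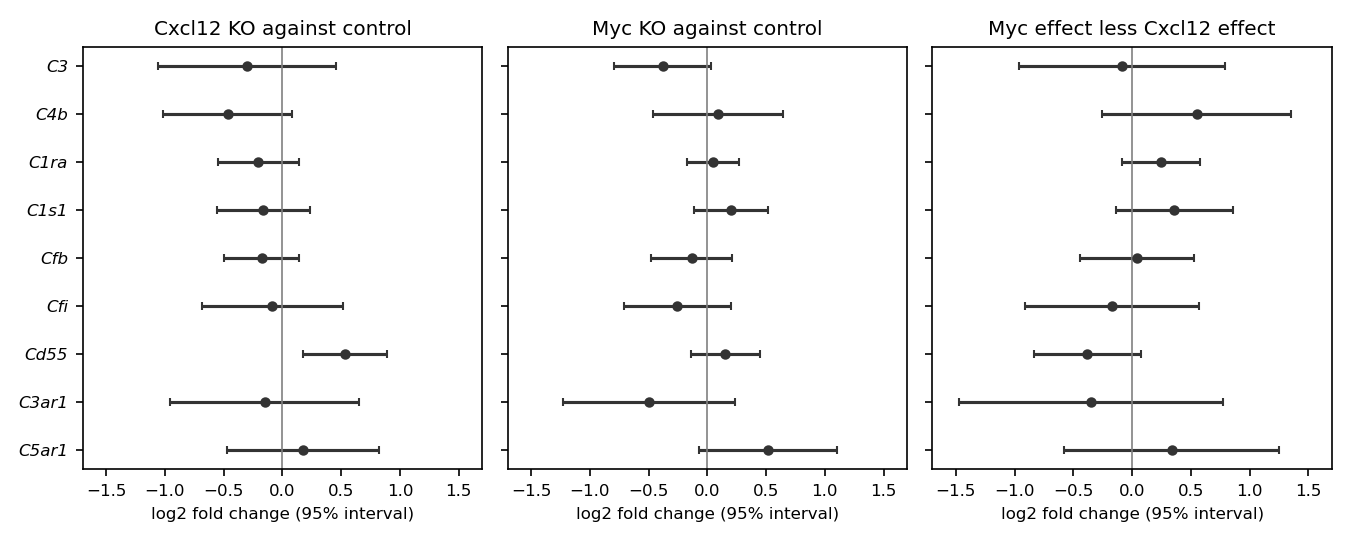
Log2 fold change of each complement gene with its 95% interval in the *Cxcl12* cohort, in the *Myc* cohort and for the *Myc* effect less the *Cxcl12* effect. Of the 27 intervals, the *Cd55* interval in the *Cxcl12* cohort, from 0.18 to 0.89, is the one that does not reach 0.

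The effects of both deletions were compared in 1 fit over all 18 kidneys. The difference between the *Myc* and the *Cxcl12* effect passed for 0 of the 9 members (edgeR, background 0.0692% of 15903 genes), and 0 of 9 passed an unadjusted p under 0.05, against 11.4% of genes. DESeq2 called 0 of the 5 members to which it gave an adjusted p (3.04% of genes) and limma voom 0 of 9 (0.0189%). The largest differences, Myc less Cxcl12, were 0.55 for *C4b* (95% interval -0.25 to 1.35, edgeR adjusted p = 0.648) and -0.38 for *Cd55* (95% interval -0.84 to 0.07, edgeR adjusted p = 0.543). The interval of the difference ran from -0.97 to 0.79 for *C3*, from -1.48 to 0.77 for *C3ar1* and from -0.58 to 1.25 for *C5ar1*.

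The groups of both mouse lines were also set side by side. The *Cxcl12* controls had less *Cd55*, at 11.7 to 12.4 CPM, than the *Myc* controls, at 16.9 to 24.2 CPM, without overlap. It was the only 1 of 9 members with this separation, which 12.1% of 15903 genes had. Among the KO kidneys *C1ra* ran from 4.66 to 5.58 CPM for *Cxcl12* and from 6.13 to 7.44 CPM for *Myc*, and *C5ar1* from 3.70 to 9.05 and from 9.62 to 13.1 CPM. These were 2 of 9 members without overlap, against 10.2% of genes. Line and cohort cannot be told apart in this comparison, which has no test here.

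From kidney to kidney, pairs of the 9 genes had correlations of both signs. Correlations were taken on log2 CPM less the group mean over the 18 kidneys, as a description; both values of a point come from the same library. Over the 36 pairs of members the median r was -0.01 and the range -0.75 to 0.48. The lowest was that of *C1s1* with *Cfb* (r = -0.75), which ran from -0.78 to -0.70 when 1 kidney was left out and was -0.90 over the 12 kidneys with at least 5% unmapped reads, but -0.35 with the counts of column 3. The highest was that of *C3* with *C3ar1* (r = 0.48). *C1ra* and *C1s1*, whose products act in 1 complex, had r = 0.33.

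Relations to the marker lists were largest for *Cfb*, *C1s1* and *C5ar1*. Over the 18 kidneys the largest r of either sign was 0.42 for *C4b* (endothelium), 0.41 for *Cfi* (neutrophil) and -0.26 for *C1ra* (tubular injury). *C4b* had r = 0.38 with the neutrophil markers, and 0.74 over the 12 kidneys with at least 5% unmapped reads. *Cfb* varied with the sum of 8 proximal tubule markers (r = 0.90) and against the sum of 8 fibroblast and mesangium markers (r = -0.84). It also had r = 0.64 with the hepatocyte, -0.63 with the endothelium and -0.58 with the podocyte markers. The 3 genes most like it were *Aldh2* (r = 0.95), *Fah* (r = 0.95) and *Med25* (r = 0.95). *C1s1* showed the opposite pattern, with r = 0.81 for the fibroblast and mesangium markers and r = -0.61 for the proximal tubule markers. For *C1s1* r was also 0.67 with the podocyte and 0.57 with the endothelium markers. *Timp2*, an inhibitor of matrix proteases, was the gene most like *C1s1* (r = 0.87). *C5ar1* followed the sum of 8 neutrophil markers (r = 0.83, and 0.59 over the 12 kidneys with at least 5% unmapped reads), and *Trem1* (r = 0.93), a receptor of myeloid cells, and *Actn1* (r = 0.92) were among the genes closest to it. *C5ar1* also had r = 0.66 with the macrophage and dendritic cell markers (0.47 over those 12 kidneys). With the T and B lymphocyte markers it had r = 0.52 (0.55 over those 12). Across the *Myc* cohort those neutrophil sums ran from 52.8 to 295 CPM in control and from 172 to 334 CPM in KO kidneys, and *Myc* control replicate 1, lowest in *C5ar1*, had the lowest sum of its cohort. The part of neutrophil number in the *C5ar1* values was not tested. *C3ar1* had r = -0.04 with the neutrophil markers and r = 0.07 with the 8 macrophage and dendritic cell markers (0.06 and 0.32 over those 12 kidneys). With the T and B lymphocyte markers, which held at most 27 reads each in any kidney, it had r = 0.49 (0.58 over those 12). The counts of *C3ar1* were the lowest among the members, and counting error can weaken its r.

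**Figure D3:**
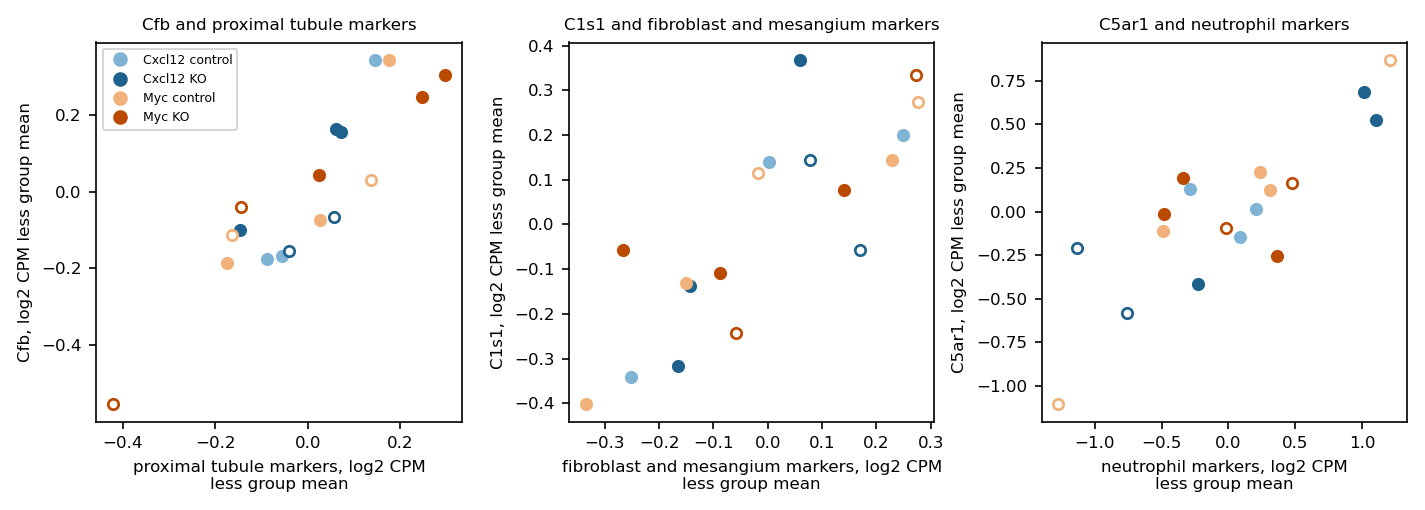
Deviation of a complement gene from its group mean (log2 CPM, vertical axis) against the deviation of the summed CPM of a marker list (log2, horizontal axis) in 18 kidneys: *Cfb* with 8 proximal tubule markers, *C1s1* with 8 fibroblast and mesangium markers and *C5ar1* with 8 neutrophil markers. Colors give the group and open points the 6 kidneys with fewer than 5% unmapped reads, and r is 0.90, 0.81 and 0.83.

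*Cd55* lay closest to *Siah1a* (r = 0.90), *Slc19a2* (r = 0.89) and *Socs6* (r = 0.84). Its largest relation to a list was with the loop of Henle and distal tubule markers (r = 0.46), beside 0.38 with the tubular injury markers. Over the 12 kidneys with at least 5% unmapped reads these were 0.15 and 0.33, and the largest was 0.67 with the hepatocyte markers. *C3* lay closest to 1110019D14Rik, *Stxbp4* and *Hltf* (r = 0.86 each), and its largest relation to a list was with the hepatocyte markers (r = -0.58). Of the 8 hepatocyte markers *Cyp2e1*, which the kidney also makes, gave most of that sum. *Alb*, encoding albumin, was at 11.1 to 36.4 CPM and *Ttr* at 22.7 to 81.4 CPM, while *Serpina1c*, *Hpx* and *F2* held at most 18 reads in any kidney. *C1ra* lay closest to *Fbln7* (r = 0.85), *Cfi* to *Ermard* (r = 0.85) and *C3ar1* to *Lpxn* (r = 0.79). All of these genes were picked as the highest r among 13759 genes.

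**Figure D4:**
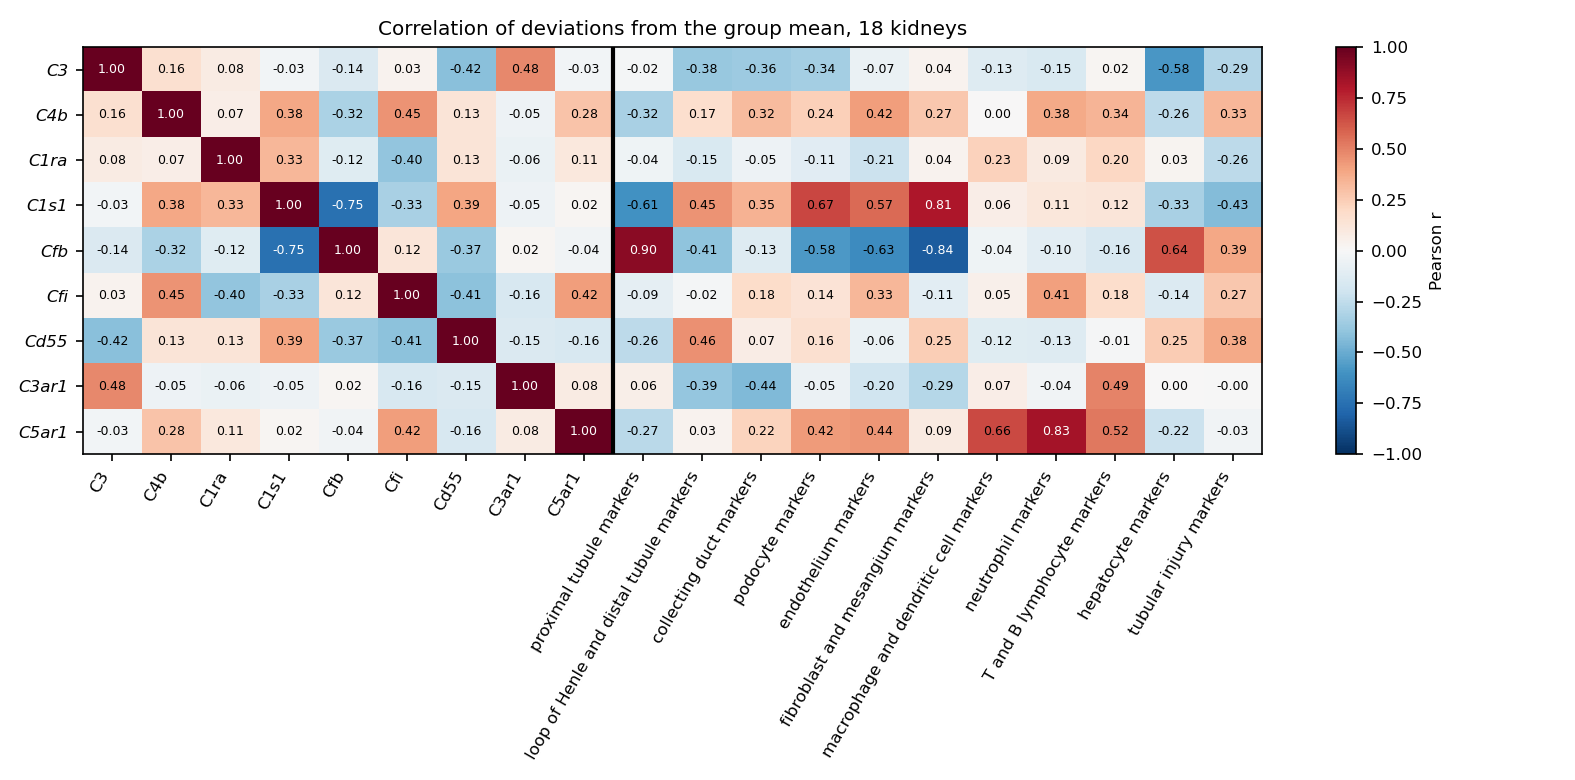
Pearson r of the deviations from the group mean over 18 kidneys, for each complement gene (rows) with the other members (left of the black line) and with the summed levels of 11 marker lists (right). *Cfb* is dark red under proximal tubule (0.90), and *C5ar1* under neutrophil (0.83), while no pair of different members exceeds 0.48.

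A further 48 genes of the pathway were listed, of which 29 passed the filter on low counts in each cohort. In the *Cxcl12* cohort 0 rose and 0 fell past the edgeR threshold, 11 had positive and 18 negative values, and the median log2 fold change was -0.11. In the *Myc* cohort 0 rose, against 0.355% of 14936 genes, and 1 of 29 fell, against 1.29%. In that cohort 17 had positive and 12 negative values, and the median was 0.06. The gene that fell was *C1qbp* (ENSMUSG00000018446, chromosome 11, 70977836 to 70983026). It is named for its binding to C1q, but its product is known chiefly as a protein of the mitochondrial matrix. It was at 132, 133, 113, 136 and 128 CPM in *Myc* control and at 88.2, 86.6, 82.5, 79.1 and 83.7 CPM in *Myc* KO kidneys, with no overlap. The log2 fold change was -0.61 (SE 0.07, edgeR adjusted p = 0.0043). Without the 4 *Myc* kidneys with fewer than 5% unmapped reads the log2 fold change of *C1qbp* was -0.64 and the edgeR adjusted p 0.051. In the *Cxcl12* cohort *C1qbp* was at 142 to 147 CPM in control and at 117 to 151 CPM in KO kidneys (log2 fold change -0.12, edgeR adjusted p = 0.639). The difference between the cohorts was -0.50, with an adjusted p of 0.068 from edgeR and 0.0022 from DESeq2. This difference passed in 2 of 27 alternatives. Without the kidneys with fewer than 5% unmapped reads its edgeR adjusted p was 0.144.

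The genes with the smallest p in the *Cxcl12* cohort were *Itgam*, *C1rl*, *Clu*, *C2* and *Mbl1*, and none passed the threshold in this test. *Itgam* passed with a term for the kidneys with fewer than 5% unmapped reads (log2 fold change 1.05, edgeR adjusted p = 0.040). It passed in no other alternative there, and 123 genes were called in that one. *Itgam*, a chain of complement receptor 3 on neutrophils and macrophages, was at 11.4 ± 1.26 CPM (SD, n = 3) in control and 19.6 ± 6.91 CPM (SD, n = 5) in KO kidneys, with a log2 fold change of 0.77 (edgeR adjusted p = 0.258). *Clu*, encoding clusterin, an inhibitor of the terminal complex and a marker of tubule damage, was at 1384 ± 306 CPM (SD, n = 3) in control and 2226 ± 739 CPM (SD, n = 5) in KO kidneys (log2 fold change 0.68, edgeR adjusted p = 0.30). *C1rl*, *C2* and *Mbl1* had values of -0.45, -0.30 and -0.68 with edgeR adjusted p of 0.280, 0.316 and 0.387, and 42.8% of the exon bases of *C2* also belong to Gm20547. In the *Myc* cohort *C1qbp* was followed by *Itgam* (log2 fold change 0.41), *C5ar2* (0.75), *Cfp* (0.35) and *C4a* (0.47), with edgeR adjusted p from 0.213 to 0.294. Without *Myc* control replicate 3 *Itgam* was at 0.62 (edgeR adjusted p = 0.023). In this cohort *Itgam* passed in no other alternative, and 877 genes were called in that one. *C5ar2* encodes the second receptor for C5a, and *Cfp* properdin, which stabilizes the alternative convertase.

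**Figure D5:**
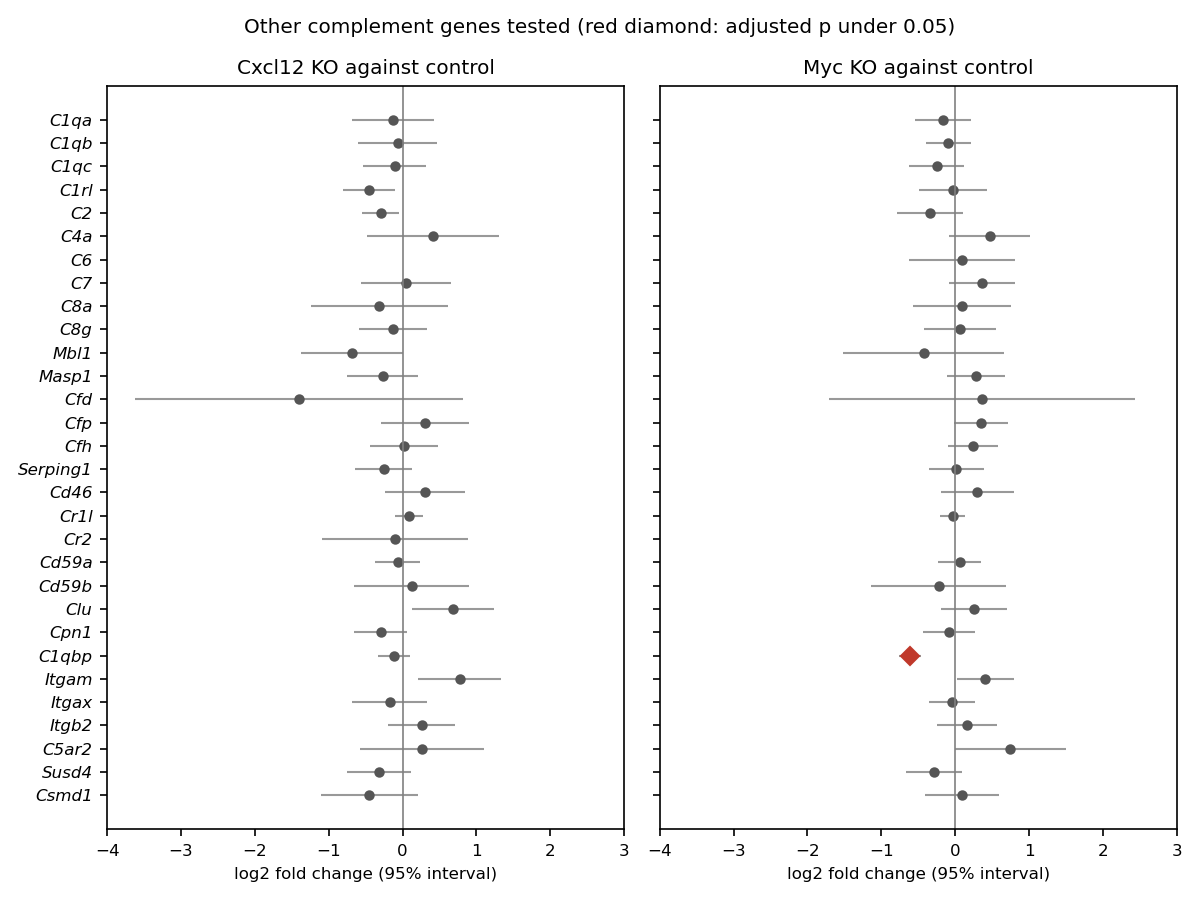
Log2 fold change with its 95% interval for those of the 48 further complement genes that passed the filter on low counts in at least 1 cohort; the red diamond marks an adjusted p under 0.05 in edgeR's test. Only *C1qbp* in the *Myc* cohort, at -0.61, is marked, and *Cfd* has the widest intervals.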

How the data were processed

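Whole-kidney RNA of 18 kidneys was measured by RNA-seq. Per the labels and the study's methods, the authors trimmed reads with Trimmomatic 0.32, aligned them to GRCm38 with STAR 2.4.0 and deposited, for each kidney, the number of reads on each gene as unscaled counts. The annotation release is not given in the sources used here. The unstranded count column was used. The library kit's strandedness is not given, but the strand columns 3 and 4 held 51.8 to 52.4% and 52.3 to 52.8% as many reads, as from unstranded libraries. Each strand column is thus a part of the reads and not a rival count of the same strand. Counts were tested with edgeR 4.0.16 (filterByExpr, TMM, quasi-likelihood F-test, Benjamini-Hochberg adjustment over all genes) in each cohort, and over all 18 kidneys for the difference of KO effects. DESeq2 1.42.0 and limma 3.58.1 (voom) in R 4.3.3 were alternatives. Log2 CPM used a prior count of 2. The fit was tested on simulated counts with the same spread for every gene and with changes larger than those of any member. It therefore does not show how well changes of the members' size would be found. Lengths and overlaps came from GENCODE vM21, to which 45143 of 45706 ids matched.

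Named genes were the 9 members, other complement genes past the threshold, the 5 with the smallest p in each cohort, duplicated copies, the 3 genes most like each member and the targeted genes; 1 gene that this rule names is not reported here. The members and lists were chosen with earlier results of these data known. Alternatives covered scaling, filtering, tool, strand column, replicate block, kidneys with fewer than 5% unmapped reads and each kidney left out. Depth of 12918220 to 29749500 reads on genes sets the counting error, which binds *C3ar1* most. All 33 within-group pairs of kidneys differed beyond sampling noise.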

Additional observations from a re-analysis of the deposited data

Results flagged for a closer look

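*C4b* in *Myc* control replicate 3 stood apart from its group at 7.41 CPM. The next kidney was at 4.59 CPM, and the gap took up 0.915 of the range of the 5 controls, above the critical value of 0.71 for 5 samples. It was the only one of 33 such groups to do so, and chance alone marks about 1 in 20. The same kidney held 8.97 CPM of *Ucp1*, as described with *C4b* above.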

How the results depend on the processing

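No member was called in the *Cxcl12* cohort, the *Myc* cohort or the difference between them under any alternative run, and 17 of 27 member values kept their direction in every one, among them *Cd55* in both cohorts (0.36 to 0.68 for *Cxcl12*). Without the kidneys with fewer than 5% unmapped reads, 1 member rather than 0 was without overlap in the *Myc* cohort. The number of all genes called moved more. For *Cxcl12*, called at 0, it was 214 with no filter on low counts, 353 by DESeq2, 9 with strand column 3, 123 with a term for those kidneys, 80 without them, 25 with all 18 kidneys in 1 fit and 0 to 15 with 1 kidney left out (15 without *Cxcl12* KO replicate 1). For *Myc*, called at 246, it was 1131 by DESeq2, 954 with the term, 8 without those kidneys, 0 with only them (chosen after seeing the data), 683 with all 18 kidneys in 1 fit and 21 to 877 with 1 kidney left out (21 without *Myc* KO replicate 2, 877 without *Myc* control replicate 3). For the difference, called at 11, it was 324 by DESeq2, 3 by limma voom, 4 and 7 with strand columns 3 and 4, 133 with the term, 44 without those kidneys and 1 to 75 with 1 kidney left out (75 without *Myc* KO replicate 5). The causes were not tested.

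Signs changed in values that had not passed the test. In the *Cxcl12* cohort *Cfi* was at 0.028 with strand column 4, *C3ar1* at 0.081 with the term and 0.075 without those kidneys, and *Cfp* at -0.014 with strand column 3. With 1 kidney left out *C3* ran from -0.62 to 0.091, *Cfb* from -0.27 to 0.011, *Cfi* from -0.30 to 0.11, *C3ar1* from -0.40 to 0.13 and *C5ar1* from -0.029 to 0.31. In the *Myc* cohort *C4b* was at -0.020 with only those kidneys, *Cfb* at 0.25 with strand column 4 and 0.019 without those kidneys, and *C1rl* at 0.14 and 0.24 under the same alternatives. With 1 kidney left out *C4b* ran from -0.12 to 0.28, *C1rl* from -0.15 to 0.076 and *Mbl1* from -0.66 to 0.039. For the difference *Cfb* was at -0.019 by limma voom, -0.18 with strand column 3 and -0.077 with the term, and with 1 kidney left out *C3* ran from -0.47 to 0.23, *Cfb* from -0.16 to 0.16 and *Cfi* from -0.37 to 0.049.

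Whether the replicate numbers pair the kidneys could not be told from 3 and 5 pairs. Deviations of same-numbered KO and control kidneys correlated at -0.032 to 0.13 (3 pairs, *Cxcl12*) and -0.21 to 0.40 (5 pairs, *Myc*), and 2 of 3 and 0 of 5 controls lay closest to the KO kidney of their own number. The mean for same-numbered kidneys was 0.068 (*Cxcl12*) and 0.053 (*Myc*), against -0.017 and -0.011 for differently numbered ones. With a replicate block 0 genes were called for *Cxcl12*, 18 for *Myc* and 1 for the difference, and the difference for *C3* was 0.040. *C1qbp* kept its call for *Myc* under the block (edgeR adjusted p = 0.044) and lost it without the kidneys with fewer than 5% unmapped reads (0.051) and with only them (0.579).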
